A study of Homo sapiens with 24 samples.

Results

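Knockdown of NONO was compared with a control small interfering RNA (siRNA) in SBC-3, a wild-type human cell line labelled as small cell lung cancer. The comparison uses 9 of the 24 libraries of the series: 3 with the control siRNA (siCtrl), 3 with siNONO-3 and 3 with siNONO-4, a pair of siRNAs against the NONO mRNA. All libraries were made from poly(A)-selected RNA with the KAPA RNA HyperPrep kit, 72 h after siRNAs had been delivered at 10 nM by reverse transfection with Lipofectamine RNAiMAX. The effect of NONO knockdown was the mean of siNONO-3 and siNONO-4 minus siCtrl, and a gene counted only if it moved the same way with both siRNAs. The 6 libraries of siSFPQ-2 and siSFPQ-3, siRNAs against SFPQ used in the same line, dose and time, serve below to show where the response to NONO knockdown differed from that to SFPQ knockdown. The model is 1 cell line, a reduced and not absent target, and 1 time point.

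NONO, SFPQ and PSPC1 are the DBHS proteins (Drosophila behaviour, human splicing), which pair with one another through shared RNA-binding and coiled-coil regions. They bind DNA and RNA and take part in transcription, splicing, RNA retention in the nucleus and repair of DNA breaks. With the long noncoding RNA NEAT1 they build paraspeckles, nuclear bodies for which NONO and SFPQ are core proteins. The series asks how SFPQ and its partners act on the transcripts that microRNAs are cut from.

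Each library held whole-number read counts for 60605 genes, and the 9 library totals ran from 9239632 to 13525528 reads. Library totals were lower with the NONO siRNAs (9920426 ± 534510 reads, SD, n = 6) than with siCtrl (11616776 ± 1781170 reads, SD, n = 3; exact 2-sided permutation p = 0.0476), and the part of this gap in the results was not tested. The share of reads from mitochondrially encoded genes was 8.71% ± 0.87 (SD, n = 6) against 8.21% ± 0.76 (SD, n = 3; exact 2-sided permutation p = 0.44). Of the markers set for the line, YAP1 averaged 406.9 CPM (reads scaled to library size, with TMM factors) and KRT8 108.2 CPM in siCtrl. The neuroendocrine markers INSM1, CHGA and NCAM1 and the epithelial marker EPCAM had at most 4 reads each over the 9 libraries. Other neuroendocrine genes were expressed: in siCtrl SYP averaged 17.2 CPM, NEUROD1 4.62 CPM, ENO2 26.7 CPM, PCSK1 17.5 CPM and SNAP25 7.69 CPM. Of 28 markers of other cell types, 9 had 0 reads in all 9 libraries and 24 stayed under 1 CPM in every group. Their summed level was 86.9 to 94.6 CPM in siCtrl, 77.5 to 84.1 CPM with siNONO-3 and 91.3 to 111.1 CPM with siNONO-4. PTPRC, DCN, HBB and INS were among those at 0, while COL1A1, ACTA2 and TP63 carried most of the signal.

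NONO RNA fell to 17.4% of its control level. The siCtrl libraries held 396, 415 and 386 CPM of NONO, those of siNONO-3 58.7, 76.4 and 72.5 CPM, and those of siNONO-4 65.0, 75.1 and 70.2 CPM. Every siNONO library lay below every siCtrl library. On the log2 scale NONO changed by -2.52 (SE 0.07, adjusted p = 5.11e-20), and siNONO-4 minus siNONO-3 was 0.02 (SE 0.09, adjusted p = 0.935). Over the 9 libraries the exact 2-sided permutation p for the CPM was 0.0119, the smallest that 84 splits allow. NONO spans X:71254814-71301522 on the plus strand of hg38 and overlaps ZMYM3 on the other strand. ZMYM3 itself was not called (-0.17, adjusted p = 0.162).

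The partners of NONO did not fall with it. PSPC1, the DBHS protein that can pair with either of the others, held 132, 130 and 116 CPM in siCtrl, 208, 215 and 200 CPM with siNONO-3 and 203, 197 and 211 CPM with siNONO-4. All 6 siNONO libraries were above all siCtrl libraries, a log2 difference of 0.71 (SE 0.07, adjusted p = 1.19e-07). SFPQ held 1268, 1191 and 1211 CPM in siCtrl, 1571, 1463 and 1443 CPM with siNONO-3 and 1573, 1602 and 1666 CPM with siNONO-4. SFPQ rose by less, 0.34 (SE 0.09, adjusted p = 0.011), with no overlap between the groups, but siNONO-3 alone did not pass the test (0.29, adjusted p = 0.0572), and the call was lost without siCtrl replicate 2 or 3. NEAT1 gave no call (0.07, SE 0.21, adjusted p = 0.869): its siCtrl libraries ran from 231 to 429 CPM and enclosed those of both NONO siRNAs. Without siCtrl replicate 1 the NEAT1 value was -0.03 and without siCtrl replicate 2 it was -0.10. Counts per gene from poly(A)-selected RNA do not tell NEAT1 isoforms apart and can miss RNA without a poly(A) tail. In the test of SFPQ knockdown minus NONO knockdown, NEAT1 was higher after SFPQ knockdown (1.00), where it averaged 643.5 and 650.8 CPM, and PSPC1 was not called (-0.02).

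**Figure D1:**
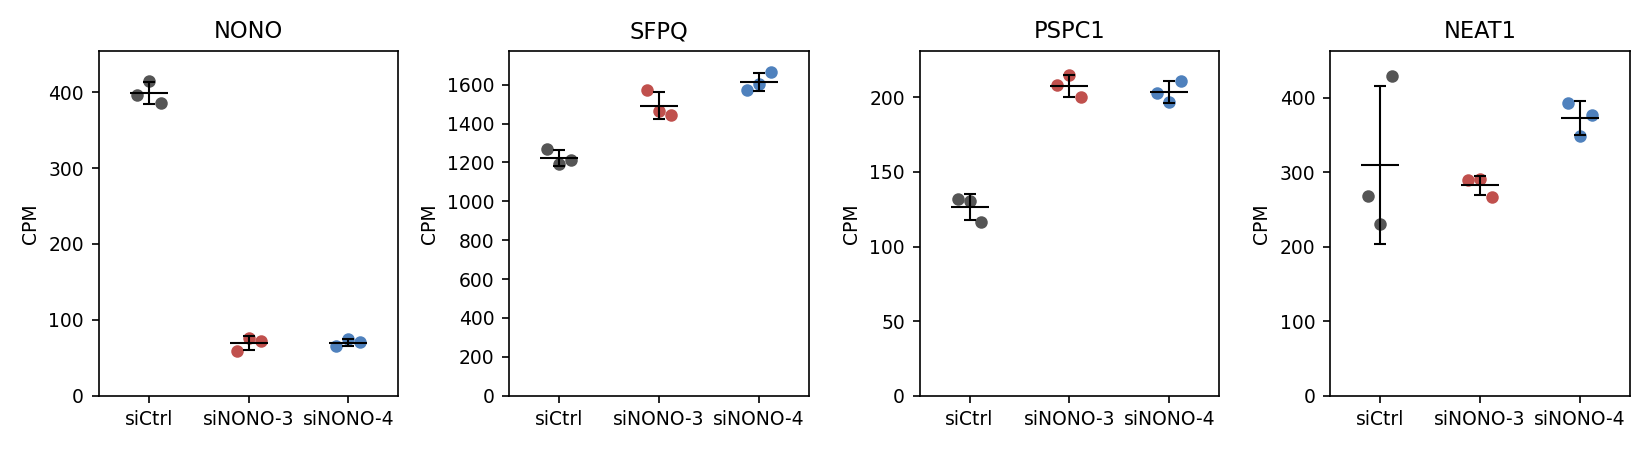
CPM of NONO, SFPQ, PSPC1 and NEAT1 (y axis of each panel) in the 3 libraries of siCtrl, siNONO-3 and siNONO-4 (x axis). Points are libraries, the bar is the group mean and the whisker its SD; NONO sits between 58.7 and 76.4 CPM in all 6 knockdown libraries, PSPC1 between 197 and 215 CPM, and the siCtrl values of NEAT1 spread widest.

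Of 38 further paraspeckle proteins listed, 35 were tested. Of these, 2 were called higher and 2 lower, against 7.45% higher and 9.7% lower of all 15869 genes tested. With the replicate number as a block, 3 were higher and 4 lower, against 11.9% and 14.3% of all genes tested. AKAP8L, a nuclear scaffold protein, rose by 0.46 (SE 0.08, adjusted p = 0.000317). RBM14, which is needed for paraspeckle assembly, rose by 0.44 (SE 0.10, adjusted p = 0.00243), though it shares its locus with the read-through gene RBM14-RBM4. RBM3, a cold-inducible RNA-binding protein, was at -0.39 (adjusted p = 0.0313), a call that was lost without siCtrl replicate 1, without siNONO-3 replicate 2 or 3, or without siNONO-4 replicate 2 or 3. The 2 calls in the lower direction became 1 without siCtrl replicate 1 or 2, siNONO-3 replicate 2, or siNONO-4 replicate 1 or 3, and 0 without siNONO-3 replicate 3.

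Across all genes, 2721 (17.1%) passed an adjusted p of 0.05 (Benjamini-Hochberg) with the same sign for both siRNAs: 1182 higher (7.45%) and 1539 lower (9.7%). Most changes were small. The median log2 fold change was 0.46 among genes called higher and -0.51 among those called lower, and 254 genes (1.6%) rose and 262 (1.65%) fell by at least 2-fold. In 961 genes (6.06%) the change was also called with each siRNA alone, in the same direction. With the replicate number as a block the calls rose to 4150 (26.2%), with 1885 higher (11.9%) and 2265 lower (14.3%). Those block shares, and not 7.45% and 9.7%, stand beside the block counts of the gene lists. Without siCtrl replicate 1, and with no block, 1639 genes were called. In these bulk samples, a change in every cell and a larger change in some of the cells cannot be told apart.

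**Figure D2:**
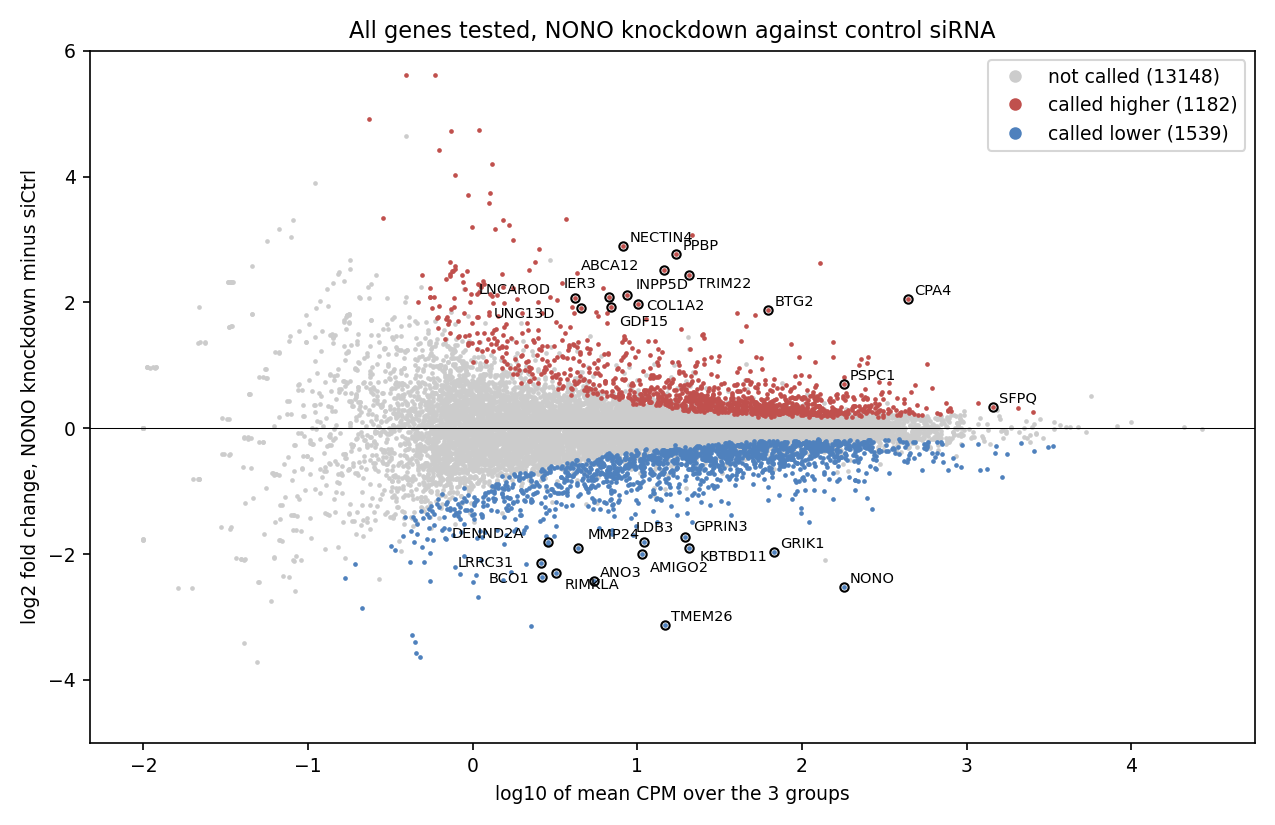
Each point is 1 of the 15869 genes tested: mean CPM over the 3 groups on the x axis (log10) and log2 fold change of NONO knockdown minus siCtrl on the y axis, with called genes in red (1182 higher) and blue (1539 lower). Circles mark the 12 largest rises and falls that passed with both siRNAs and the DBHS genes; NONO stands at -2.52, TMEM26 below it at -3.13, and PSPC1 and SFPQ above the zero line.

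Among genes with at least 5 CPM in a group that were called with each siRNA, the largest rise was that of NECTIN4, a cell adhesion molecule of epithelia (1:161070998-161089558, hg38). NECTIN4 held 1.43, 1.12 and 1.75 CPM in siCtrl, 18.5, 12.7 and 15.6 CPM with siNONO-3 and 7.88, 7.08 and 7.80 CPM with siNONO-4. Both siRNAs raised it well past the control spread, siNONO-3 more so (2.89, SE 0.24, adjusted p = 2.67e-09 in the mean). PPBP, which encodes a chemokine precursor best known from platelets, held 3.04, 4.60 and 2.55 CPM in siCtrl, 13.2, 19.3 and 15.01 CPM with siNONO-3 and 24.6, 32.8 and 39.5 CPM with siNONO-4. Here siNONO-4 was the stronger siRNA (2.76 in the mean, SE 0.30, adjusted p = 4.12e-06). CPA4, a secreted carboxypeptidase, was the most abundant of these genes, with 99.4, 150 and 176 CPM in siCtrl, 442, 582 and 788 CPM with siNONO-3 and 445, 503.5 and 783 CPM with siNONO-4. CPA4 varied widely within each group, and still no siNONO library reached down to siCtrl (2.06, SE 0.34, adjusted p = 0.000526).

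The other 9 of the 12 largest rises were ABCA12, a lipid transporter of skin cells (2.52), TRIM22, an antiviral ubiquitin ligase (2.43), INPP5D, an inositol phosphatase (2.12), IER3, a stress-induced gene (2.09), the long noncoding RNA LNCAROD (2.08), the collagen gene COL1A2 (1.97), the stress cytokine gene GDF15 (1.93), UNC13D, which primes secretory granules (1.92), and BTG2, an antiproliferative gene (1.88). In each of the 12, all 6 siNONO libraries lay above all 3 siCtrl libraries, against 7.98% of all genes tested. ABCA12, TRIM22 and IER3 overlap other genes on the opposite strand (SNHG31, TRIM5, and IER3-AS1 with HCG20), and strand use in the counting is not given in the sources used here. The 5 smallest adjusted p-values among rises belonged to NECTIN4, TRIM22, BTG2, CDKN1A and PSTPIP2. PSTPIP2, a membrane-shaping adaptor, rose by 1.57 (SE 0.13, adjusted p = 3.34e-09).

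The largest fall was that of TMEM26, a membrane protein of little known function (10:61406642-61453381, hg38). TMEM26 held 32.9, 25.5 and 46.7 CPM in siCtrl, 3.06, 1.70 and 2.14 CPM with siNONO-3 and 5.70, 8.04 and 7.08 CPM with siNONO-4. That is 11.4% of the control level (-3.13, SE 0.21, adjusted p = 7.35e-10), deeper than the loss of NONO itself. GRIK1, a subunit of kainate-type glutamate receptors (21:29536933-29940033, hg38), had the smallest p of the falls. GRIK1 held 146, 112 and 140 CPM in siCtrl, 28.5, 25.4 and 23.7 CPM with siNONO-3 and 47.4, 45.6 and 41.1 CPM with siNONO-4 (-1.96, SE 0.10, adjusted p = 6.57e-14). BACH1 lies opposite it in the same locus. The groups of TMEM26 and of GRIK1 do not overlap, and siNONO-3 gave the deeper fall in both.

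The other 10 of the 12 largest falls were the anoctamin gene ANO3 (-2.43), the carotenoid-cleaving enzyme gene BCO1 (-2.37), RIMKLA, which makes the neuropeptide NAAG (-2.30), LRRC31 (-2.13), the adhesion gene AMIGO2 (-1.99), KBTBD11 (-1.91), the membrane metalloproteinase gene MMP24 (-1.90), the Z-disc gene LDB3 (-1.81), DENND2A, an activator of Rab proteins (-1.80), and GPRIN3 (-1.73). In each of the 12, all 6 siNONO libraries lay below all 3 siCtrl libraries, against 7.69% of all genes tested. UNC13A, which primes synaptic vesicles, fell from 63.8, 57.8 and 65.7 CPM in siCtrl to 23.1, 23.4 and 22.8 CPM with siNONO-3 and 25.5, 26.2 and 23.6 CPM with siNONO-4. The UNC13A libraries were tight within each group (-1.38, SE 0.09, adjusted p = 7.65e-11). Abundant genes with smaller but as steady falls were the adiponectin receptor gene ADIPOR2 (-0.81, SE 0.06, adjusted p = 4.8e-10) and AHCYL1, a regulator of inositol trisphosphate receptors (-0.71, SE 0.06, adjusted p = 1.11e-09), both lower with siNONO-4 than with siNONO-3.

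Among the 34 gene lists, the 4 lists of targets of the transcription factor p53 had the largest shares called higher. p53 is activated by DNA damage and other stress, and its targets halt the cell cycle, start apoptosis, repair DNA, alter metabolism and feed back on p53 itself. Of 63 targets in 4 lists, 58 were tested, of which 42 were called higher (72.4%, against 7.45% of all genes tested) and 1 lower. The median log2 fold change of the 58 was 0.83, against -0.004 for all genes tested. In 40 of the 58, all 6 siNONO libraries lay above all siCtrl libraries, against 7.98% of all genes tested. Leaving out any 1 library left 38 to 42 called higher, and the replicate block gave 43.

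Cell cycle arrest was represented by 13 tested genes, of which 9 were called higher and 1 lower. CDKN1A, the inhibitor of cyclin-dependent kinases known as p21 (6:36676460-36687337, hg38), held 14.6, 12.99 and 16.9 CPM in siCtrl, 59.0, 50.7 and 54.2 CPM with siNONO-3 and 59.3, 42.9 and 52.3 CPM with siNONO-4. CDKN1A overlapped between the siRNAs and not with control, at 356% of the control level (1.83, SE 0.14, adjusted p = 1.11e-09). BTG2 held 25.1, 20.6 and 20.7 CPM in siCtrl, 105, 89.1 and 95.1 CPM with siNONO-3 and 72.9, 61.7 and 71.9 CPM with siNONO-4 (1.88, SE 0.13, adjusted p = 2.99e-10). GADD45A, a damage-inducible growth inhibitor, rose by 1.43 (SE 0.17, adjusted p = 2.26e-06) and SESN1, an antioxidant sestrin, by 1.34 (SE 0.14, adjusted p = 3.93e-07). Both BTG2 and GADD45A rose further with siNONO-3 than with siNONO-4. CCNG1 (-0.17, adjusted p = 0.207) and E2F7 (0.32, adjusted p = 0.199) did not pass the test. PRDM1, a transcription repressor, was called lower (-0.92, adjusted p = 0.0189), a call lost without siCtrl replicate 1 or 2 or siNONO-3 replicate 3. The list also held TNFRSF10C, a decoy receptor and no arrest gene, which was not called.

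Of the p53 targets listed under feedback, 9 were tested, 7 of them called higher and 0 lower in edgeR's quasi-likelihood test. This list also held the antiviral gene TRIM22 and the apoptosis inhibitor gene TRIAP1, so its count is not one of feedback genes alone. MDM2, the ubiquitin ligase that degrades p53 (12:68808177-68845544, hg38), held 362, 348 and 300 CPM in siCtrl, 900.0, 707 and 749 CPM with siNONO-3 and 644, 569 and 557 CPM with siNONO-4. MDM2 rose with both NONO siRNAs and no library overlapped (1.02, SE 0.10, adjusted p = 7.48e-08), though other genes share its locus on both strands. TRIM22 held 5.18, 4.40 and 5.10 CPM in siCtrl, 44.4, 29.6 and 43.5 CPM with siNONO-3 and 20.4, 14.91 and 18.3 CPM with siNONO-4, and was lower with siNONO-4 than with siNONO-3 (-1.13, adjusted p = 0.000334). TP53INP1, a stress-induced partner of p53, rose by 0.77 (SE 0.12, adjusted p = 5.24e-05), and TRIAP1, an apoptosis inhibitor of mitochondria, by 0.60 (SE 0.07, adjusted p = 2.27e-06). The feedback genes RCHY1 (-0.03) and COP1 (0.16) did not pass the test.

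Apoptosis was represented by 14 tested genes, of which 8 were called higher. FAS, a death receptor, held 14.2, 12.8 and 6.92 CPM in siCtrl, 40.9, 30.8 and 32.4 CPM with siNONO-3 and 34.5, 25.9 and 26.2 CPM with siNONO-4. The FAS groups were well apart (1.502, SE 0.28, adjusted p = 0.000997), but FAS overlaps ACTA2 on the other strand, which was also called higher (1.16). BAX, a pore-forming protein of the mitochondrial membrane, rose from 30.02, 29.2 and 31.8 CPM in siCtrl to 60.3, 57.9 and 63.2 CPM with siNONO-3 and 59.6, 50.5 and 50.6 CPM with siNONO-4 (0.91, SE 0.11, adjusted p = 8.1e-07). PIDD1, part of a caspase-activating complex, rose by 1.27, TP53I3, a quinone oxidoreductase, by 1.15, and the death receptor gene TNFRSF10B by 0.72 (adjusted p = 1.99e-08). PMAIP1 (0.01), PERP (0.12), APAF1 (-0.16) and EI24 (-0.02), all linked to cell death, did not pass the test.

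Repair and metabolism were represented by 22 tested genes, of which 18 were called higher. DRAM1, a lysosomal protein linked to autophagy, held 22.3, 18.2 and 17.2 CPM in siCtrl, 92.6, 66.5 and 79.5 CPM with siNONO-3 and 64.5, 47.8 and 58.2 CPM with siNONO-4 (1.81, SE 0.17, adjusted p = 1.51e-07). GDF15 held 2.59, 1.43 and 2.99 CPM in siCtrl, 10.4, 9.87 and 11.3 CPM with siNONO-3 and 8.55, 6.43 and 8.82 CPM with siNONO-4. Neither gene had a siNONO library near the control range. The ceramidase gene ACER2 rose by 1.79, FDXR, which passes electrons to mitochondrial P450 enzymes, by 1.39, the ribonucleotide reductase subunit RRM2B by 1.00 and the excision repair genes DDB2 and XPC by 1.02 and 0.61. FUCA1 (-0.01), CES2 (0.11), PANK1 (0.19) and STEAP3 (0.47) did not pass the test.

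A few p53 targets were near silent in siCtrl. GLS2, a mitochondrial glutaminase, had 1 read over the 3 siCtrl libraries and 98 over the 6 siNONO libraries, a depth-scaled ratio of 56.8 (95% counting interval 9.96 to 2270). TNFRSF10A, a death receptor, had 1 against 56 reads, a ratio of 32.4 (5.59 to 1300). GLS2 and TNFRSF10A were named after their values were seen, and the intervals cover counting error only. PLK2, a stress-induced kinase, held 0.36, 0.51 and 0.29 CPM in siCtrl, 4.84, 5.20 and 5.87 CPM with siNONO-3 and 0.76, 0.75 and 1.23 CPM with siNONO-4. PLK2 was called in the mean (2.51, SE 0.39, adjusted p = 3.98e-05) and with siNONO-3 (3.78), but not with siNONO-4 alone (1.25, adjusted p = 0.0941).

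The p53 targets moved further with siNONO-3. With siNONO-3 alone 45 of the 58 were called higher, with a median of 1.01 (9.02% of all genes tested), and with siNONO-4 alone 34, with a median of 0.59 (5.1% of all genes tested). In the direct test of siNONO-4 minus siNONO-3, which does not use siCtrl, 24 of the 58 were lower and 1 higher, against 4.71% and 5.31% of all genes tested. The fold change was larger in size, whatever its sign, with siNONO-3 in 53 of the 58 and in 8980 of all 15869. It lay higher with siNONO-3 than with siNONO-4 in 49 of the 58 and in 7892 of all 15869. Residual NONO averaged 69.2 and 70.1 CPM with siNONO-3 and siNONO-4. In the test of SFPQ minus NONO knockdown 22 of the 58 were higher and 26 lower, with a median difference of -0.14, against 37% higher and 38.4% lower of all genes tested. CDKN1A was not called in that test (-0.14), while BAX (-1.08) and BTG2 (-1.15) were lower after SFPQ knockdown and GADD45A was higher (1.72).

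**Figure D3:**
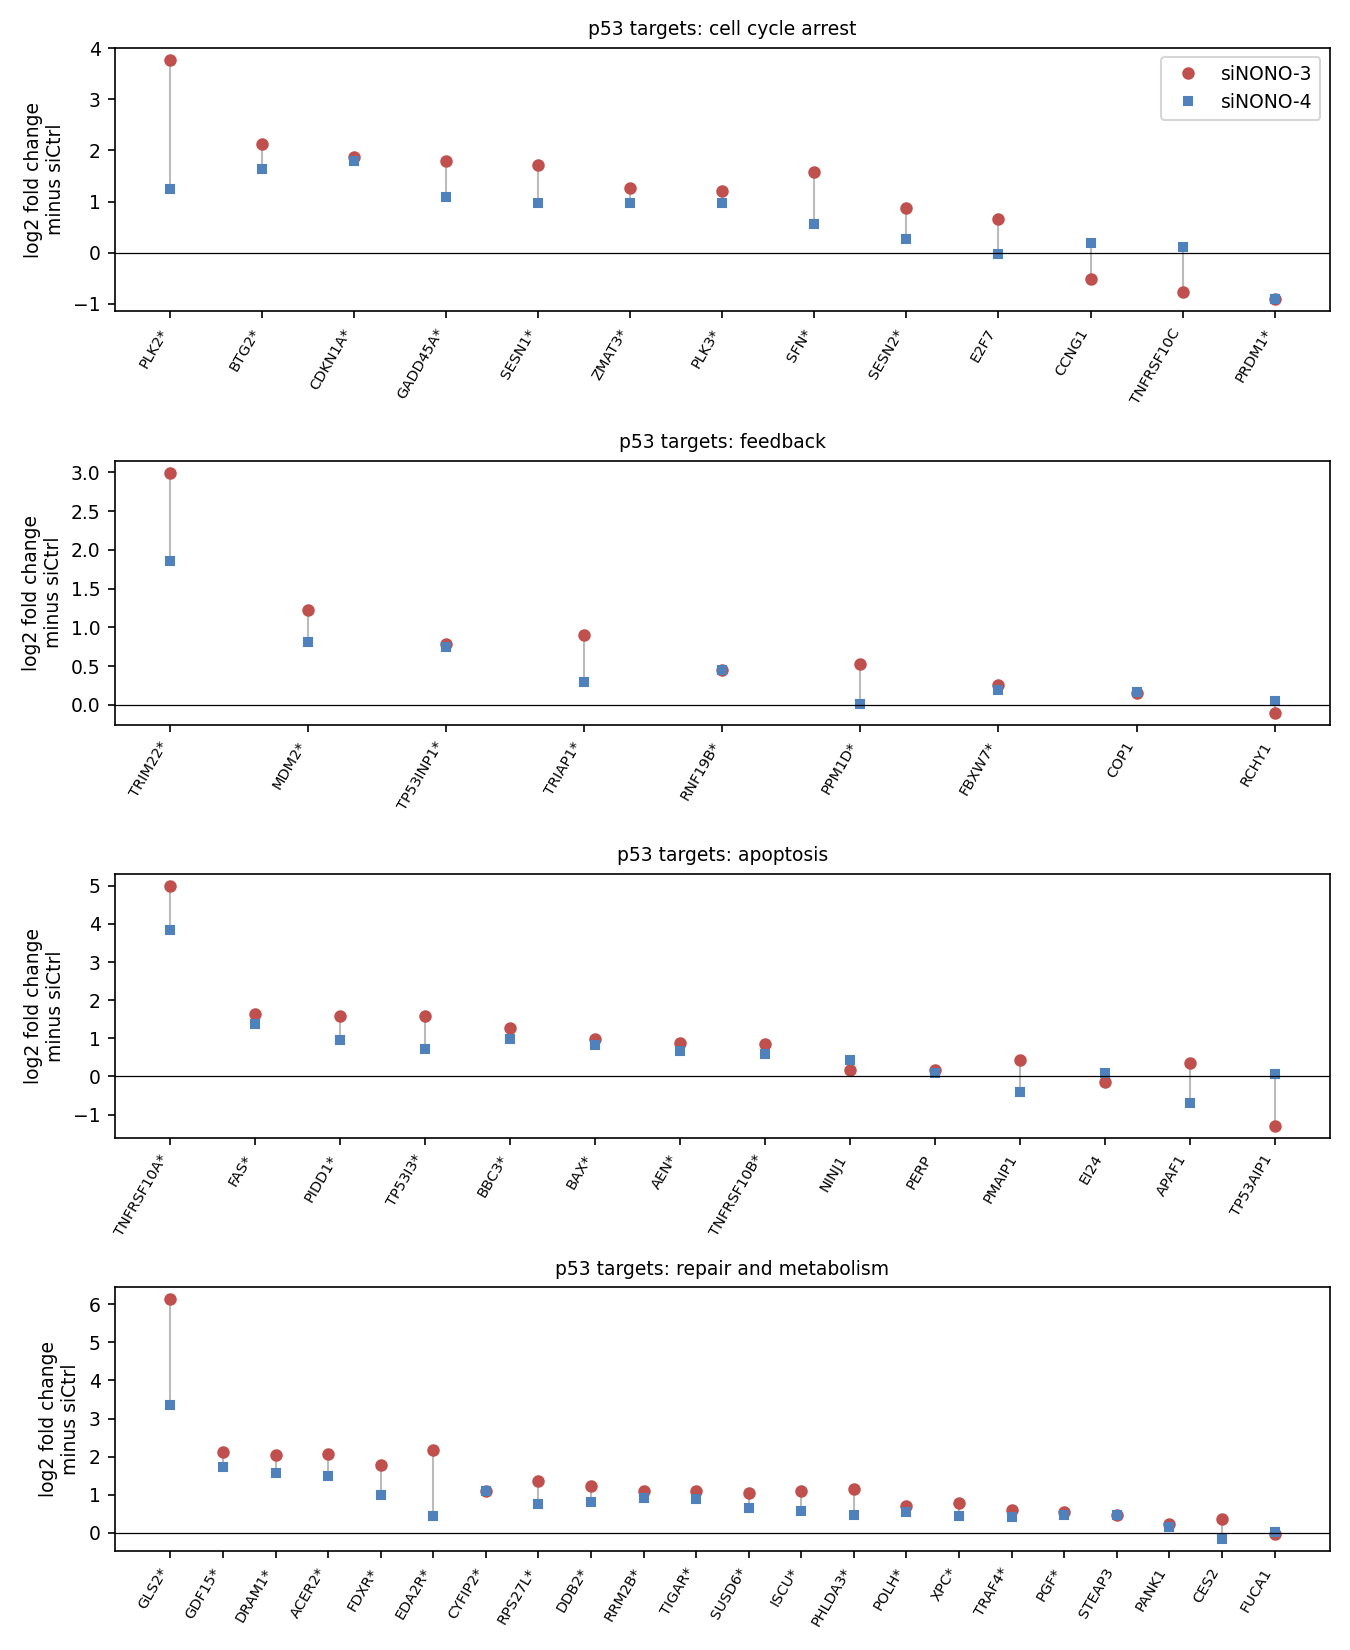
Log2 fold change against siCtrl (y axis) of each tested p53 target (x axis), a panel for each role, with siNONO-3 as red circles and siNONO-4 as blue squares joined by a grey line; a star marks a gene called in the mean of both. Red lies above blue in 49 of 58 genes, and 42 genes are starred above zero.

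Promoters of p53 targets were searched because these genes rose together. From 250 bases before to 50 bases after the gene start (RefSeq, GRCh38.p14), 11039 tested genes had a promoter sequence, 49 of them p53 targets. The 10-letter p53 half-site consensus, searched on both strands, was found in 585 of the 11039 promoters (5.3%), in 6 of the 49 p53 targets (12.2%), and in 5 of the 34 p53 targets called higher with a promoter (14.7%). Among all genes called higher the share was 5.13% and among those called lower 4.64%. A match is a description of letters in this window and not a bound site. Of the 5, 4 are printed here 5′ to 3′ along the gene, with the match in capitals: PLK2 (chr5:58460037-58460336, minus strand, match starting at position -132 from the gene start), FDXR (chr17:74872945-74873244, minus strand, -11), RPS27L, a ribosomal protein paralog (chr15:63157428-63157727, minus strand, -59), and ISCU, an iron-sulfur cluster scaffold (chr12:108562346-108562645, plus strand, -198).
PLK2: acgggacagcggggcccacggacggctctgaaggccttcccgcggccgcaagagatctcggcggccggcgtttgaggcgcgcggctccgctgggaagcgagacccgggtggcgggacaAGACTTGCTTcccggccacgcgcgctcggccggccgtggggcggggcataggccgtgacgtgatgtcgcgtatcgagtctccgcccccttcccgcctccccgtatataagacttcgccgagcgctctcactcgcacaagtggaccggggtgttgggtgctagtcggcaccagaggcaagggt
FDXR: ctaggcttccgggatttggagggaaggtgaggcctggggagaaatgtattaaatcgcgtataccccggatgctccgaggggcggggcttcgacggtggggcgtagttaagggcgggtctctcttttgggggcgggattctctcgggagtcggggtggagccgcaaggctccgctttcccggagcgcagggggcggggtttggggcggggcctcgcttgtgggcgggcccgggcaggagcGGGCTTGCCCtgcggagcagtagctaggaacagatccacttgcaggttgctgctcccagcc
RPS27L: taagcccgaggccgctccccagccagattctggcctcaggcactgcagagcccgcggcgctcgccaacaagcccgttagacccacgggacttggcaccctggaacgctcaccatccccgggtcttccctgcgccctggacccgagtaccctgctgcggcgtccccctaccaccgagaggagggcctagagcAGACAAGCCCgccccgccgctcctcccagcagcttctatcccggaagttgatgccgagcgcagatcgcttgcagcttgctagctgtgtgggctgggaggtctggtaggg
ISCU: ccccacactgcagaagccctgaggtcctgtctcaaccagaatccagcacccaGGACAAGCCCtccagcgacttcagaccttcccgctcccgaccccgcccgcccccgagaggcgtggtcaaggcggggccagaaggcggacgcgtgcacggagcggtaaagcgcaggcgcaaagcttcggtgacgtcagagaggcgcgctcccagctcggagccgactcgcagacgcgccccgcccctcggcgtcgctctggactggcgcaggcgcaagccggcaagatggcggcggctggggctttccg
Those 4 genes were taken from p53 targets called higher, so their rise was set by the choice. RPS27L held 75.1, 70.2 and 60.1 CPM in siCtrl, 183, 161 and 180.1 CPM with siNONO-3 and 121, 117 and 107 CPM with siNONO-4, and ISCU held 65.1, 66.3 and 59.9 CPM, then 153, 122 and 138 CPM, then 97.0, 94.3 and 94.2 CPM. In both, siNONO-3 lay above siNONO-4 and siNONO-4 above siCtrl with no overlap (RPS27L at 207% of control, ISCU at 0.84 on the log2 scale).

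NF-kB is a family of transcription factors that switch on inflammatory genes and their own inhibitors. Of 13 tested cytokine, chemokine and related targets, 7 were called higher (53.8%, against 7.45% of all genes tested) and 0 lower, with a median of 0.46; 4 more listed genes (CCL2, CCL5, TNF, CSF2) were not tested for lack of reads. PTGS2, the inducible prostaglandin synthase, held 149, 152 and 139 CPM in siCtrl, 232, 311 and 342 CPM with siNONO-3 and 249, 308 and 361 CPM with siNONO-4. PTGS2 was above control in all 6 libraries (1.04, SE 0.12, adjusted p = 2.26e-06), with PACERR on the other strand. ICAM1, an adhesion molecule for leukocytes, rose by 1.37 (SE 0.19, adjusted p = 9.78e-06), the cytokine gene LIF by 1.35 (SE 0.29, adjusted p = 0.00146) and the chemokine gene CXCL2 by 0.46 (SE 0.11, adjusted p = 0.00602). CXCL1 (0.225, adjusted p = 0.354), CXCL3 (0.12, adjusted p = 0.58) and VCAM1 (-1.185, adjusted p = 0.109) did not pass the test. With the replicate block 7 of these targets were higher and 1 lower, against 11.9% and 14.3% of all genes tested. Of 13 subunit and feedback genes, 4 were called higher (30.8%, against 7.45% of all genes tested) and 0 lower by edgeR. With the replicate block 6 were higher, against 11.9% of all genes tested. NFKB2 rose from 9.29, 12.4 and 11.9 CPM to 20.2, 23.6 and 25.7 CPM with siNONO-3 and 19.5, 18.02 and 19.9 CPM with siNONO-4 (0.91, SE 0.13, adjusted p = 1.52e-05). RELB (1.01), the deubiquitinase gene CYLD (0.64) and RELA (0.46) also rose, with no overlap between groups. NFKB1 (0.11, adjusted p = 0.676), NFKBIA (0.22, adjusted p = 0.242) and TNFAIP3 (0.61, adjusted p = 0.0592) were among the genes that did not pass.

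Interferon-stimulated genes are the targets of antiviral signalling. Of 20 tested, 2 were called higher (10%) and 1 lower, a share near that of all genes; with the replicate block 4 were higher, and the count of higher genes was 1 without siCtrl replicate 2. The call in the lower direction was lost without siCtrl replicate 1, siNONO-3 replicate 2 or 3, or siNONO-4 replicate 2 or 3. The named member DDX60, an antiviral helicase, was at 0.83 (adjusted p = 0.0104), with overlapping groups, and its call was lost without siCtrl replicate 2 or 3. Of 7 tested sensors of RNA and DNA and their kinases, TBK1, a kinase that relays such signals, rose by 0.49 (SE 0.08, adjusted p = 0.000168), from 139, 129 and 119 CPM to 201, 177 and 199 CPM with siNONO-3 and 170, 170.0 and 169 CPM with siNONO-4.

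Immediate early genes respond to signals within minutes, and were listed with genes of the CREB pathway. Of 24 tested, 6 were called higher (25%) and 3 lower (12.5%), against 7.45% and 9.7% of all genes tested. The replicate block gave 13 higher, against 11.9% of all genes tested. The 3 lower were FOSL2, the cAMP-activated transcription factor gene CREB1 (-0.23, not called without siCtrl replicate 2, adjusted p = 0.0921) and the gluconeogenic enzyme gene PCK1 (-1.38, named after its values were seen), and CREB1 and PCK1 are not immediate early genes. IER3 rose from 2.06, 2.35 and 1.68 CPM in siCtrl to 15.9, 11.6 and 9.23 CPM with siNONO-3 and 7.69, 4.93 and 5.33 CPM with siNONO-4. FOSL2, a Fos-family transcription factor, went the other way, from 149, 137 and 128 CPM to 68.8, 62.5 and 62.8 CPM and to 68.5, 72.4 and 65.5 CPM. The FOSL2 libraries were at about the same level with both siRNAs (-1.05, SE 0.09, adjusted p = 1.1e-08). JUN was called in the mean (0.83, adjusted p = 0.000227) with overlapping groups, being higher with siNONO-3 (1.28) and at 0.38 with siNONO-4 (adjusted p = 0.169). The ATF4 response adjusts amino acid supply under stress. Of its 21 tested genes, 2 were called higher (9.52%) and 1 lower (4.76%), against 7.45% and 9.7% of all genes tested. ATF3, a stress-induced transcription factor, rose by 1.68 (SE 0.25, adjusted p = 2.22e-05). The other 2 of those calls, PPP1R15A (0.52, adjusted p = 0.0314) and VLDLR (-0.44, adjusted p = 0.0137), were lost without siCtrl replicate 1 or 2, and that of PPP1R15A also without siNONO-3 replicate 2 or 3 or siNONO-4 replicate 3. The siRNAs differed on the ATF4 list, with a median of 0.37 with siNONO-3 and -0.34 with siNONO-4. All 21 genes lay higher with siNONO-3 than with siNONO-4, against 7892 of all 15869 genes tested. In the direct test between the siRNAs, 2 of the 21 were lower with siNONO-4 and 0 higher.

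**Figure D4:**
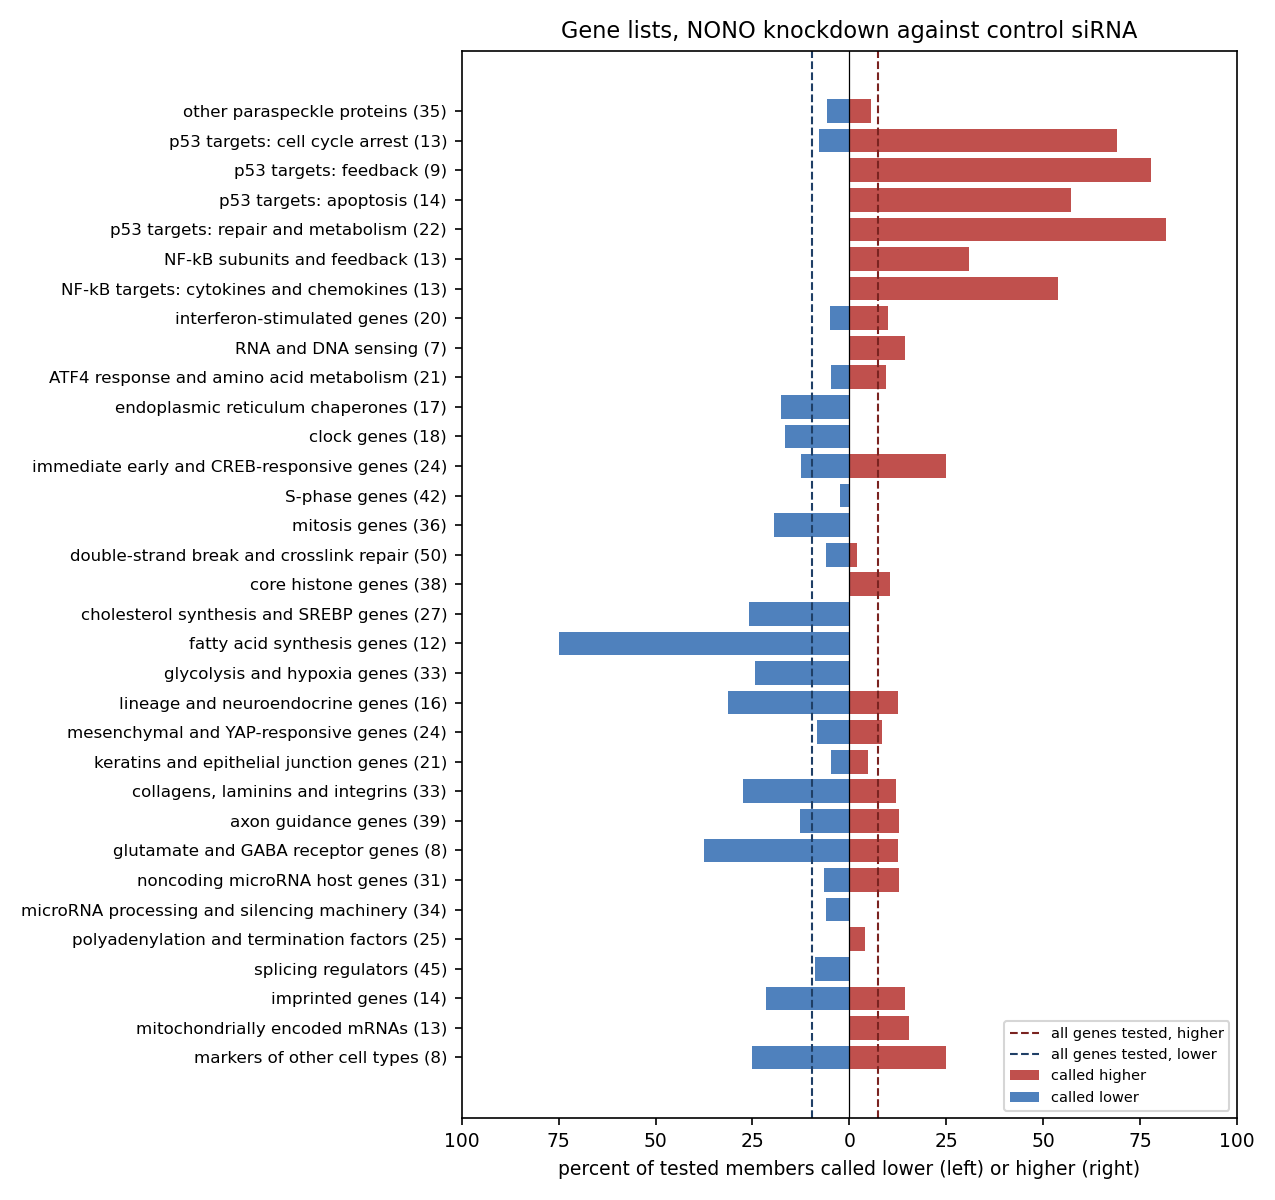
Percent of the tested members of each gene list called lower (blue, to the left) or higher (red, to the right) with NONO knockdown; the number tested is in parentheses and dashed lines give the shares of all genes tested (9.7% lower, 7.45% higher). Lists with at least 7 tested members are drawn; the p53 lists reach furthest to the right and fatty acid synthesis (75%) furthest to the left.

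Fatty acid synthesis had the largest share called lower among the lists. Of 39 tested genes of cholesterol and fatty acid synthesis, 16 were called lower (41%, against 9.7% of all genes tested) and 0 higher by edgeR, with a median of -0.33, and 28 were lower with the replicate block. By pathway these were 9 of 12 fatty acid genes (75%; 11 with the block) and 7 of 27 cholesterol genes (25.9%; 17 with the block). The counts changed with single libraries: the fatty acid count was 4 without siCtrl replicate 1 and 5 without siCtrl replicate 2. The cholesterol count was 3 without siCtrl replicate 1, 4 without siCtrl replicate 2, siNONO-3 replicate 2 or 3, or siNONO-4 replicate 2 or 3, and 11 without siNONO-4 replicate 1. SCD, which introduces the double bond of oleic acid, held 1001, 916 and 814 CPM in siCtrl, 675, 635 and 556 CPM with siNONO-3 and 654, 641 and 590 CPM with siNONO-4. The SCD groups did not overlap (-0.54, SE 0.09, adjusted p = 0.000198). ELOVL5, an elongase of polyunsaturated fatty acids, fell from 217, 218 and 180.3 CPM to 119, 126 and 103 CPM with siNONO-3 and 93.2, 102 and 74.7 CPM with siNONO-4 (-1.004, SE 0.13, adjusted p = 1.97e-05).

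INSIG1, the sterol sensor that holds back lipid synthesis, fell by 0.46 (SE 0.09, adjusted p = 0.000441). INSIG1 had all siNONO libraries below siCtrl. FASN, the fatty acid synthase, did not pass the test (-0.32, adjusted p = 0.0994), and the calls of SQLE (-0.57), ELOVL6 (-0.80) and ME1 (-0.56) were lost without siCtrl replicate 1 or 2. After SFPQ knockdown 24 of the 39 genes were higher than after NONO knockdown and 10 lower, against 37% and 38.4% of all genes tested. The pathways differed: 19 of 27 cholesterol genes were higher and 4 lower (median difference 0.97). Of 12 fatty acid genes 5 were higher and 6 lower (median difference -0.27). The letters TCACNCCAC of the sterol regulatory element, searched on both strands, were in 1 of the 31 lipid promoters on hand and in 1.07% of all promoters.

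Glycolysis and hypoxia genes supply and adapt energy metabolism. Of 33 tested, 8 were called lower (24.2%, against 9.7% of all genes tested) and 0 higher by edgeR. The replicate block gave 13 lower and 1 higher, against 14.3% and 11.9% of all genes tested. GAPDH, a glycolytic enzyme often used as a reference gene, fell from 1230, 1225 and 1154 CPM in siCtrl to 836, 922 and 775 CPM with siNONO-3 and 805, 759 and 611 CPM with siNONO-4. No GAPDH library with a NONO siRNA reached the control range (-0.62, SE 0.08, adjusted p = 5.05e-06). BNIP3L, a receptor for the removal of mitochondria, fell by 0.78 (SE 0.08, adjusted p = 5.32e-08), further with siNONO-3 (-1.15) than with siNONO-4 (-0.40). LOX, which crosslinks collagen, fell by 1.36 (SE 0.23, adjusted p = 0.000423) and the glycolytic regulator PFKFB4 by 0.94 (SE 0.15, adjusted p = 6.69e-05). LOX stood at 142.7 and 88.5 CPM with siSFPQ-2 and siSFPQ-3, above its siCtrl libraries of 10.8 to 19.1 CPM.

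Cell cycle genes had mostly negative fold changes, with few calls among S-phase genes and more with the replicate block. Of 42 tested S-phase genes, 1 was called lower (2.38%, against 9.7% of all genes tested) and 0 higher by edgeR, with a median of -0.13. The replicate block gave 13 of the 42 lower, a larger share than the 14.3% of all genes tested. The call without the block was that of the polymerase subunit POLA1 (-0.42, adjusted p = 0.0338). It was lost without siCtrl replicate 1 or 2, siNONO-3 replicate 1 or 3, or any siNONO-4 replicate. The S-phase count was 0 to 3 over the libraries left out. Of 36 tested mitosis genes, 34 had a negative fold change, against 8022 of all 15869, and the median was -0.17. By edgeR 7 were called lower (19.4%, against 9.7% of all genes tested) and 0 higher. The block gave 16 of the 36 lower, also a larger share than the 14.3% of all genes tested. The mitosis count was 2 without siCtrl replicate 1, 1 without siCtrl replicate 2, and 4 without siNONO-3 replicate 3 or siNONO-4 replicate 3. TOP2A, the DNA topoisomerase of mitosis, held 1072, 1067 and 879 CPM in siCtrl, 744, 656 and 508 CPM with siNONO-3 and 842, 883 and 762 CPM with siNONO-4. The groups of TOP2A overlapped by 1 library (-0.47, SE 0.11, adjusted p = 0.00428), and siNONO-4 alone did not pass (-0.28, adjusted p = 0.183). FOXM1, a driver of mitotic gene expression (-0.52), and the kinesin gene KIF20A (-0.56) lost their calls without siCtrl replicate 1 or 2.

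NONO has a known role in the repair of double-strand breaks. Of 50 tested genes for repair of such breaks and of crosslinks, 1 was called higher (2%) and 3 lower (6%). Over all genes tested the shares were 7.45% and 9.7%. The replicate block gave 12 lower, against 14.3% of all genes tested. RAD51C, a strand-exchange protein, rose from 29.5, 30.6 and 28.0 CPM to 58.7, 55.2 and 51.3 CPM with siNONO-3 and to 37.1, 38.3 and 31.9 CPM with siNONO-4 (0.60, SE 0.08, adjusted p = 9.62e-06). XRCC4, a partner of the ligase that joins ends, fell from 23.6, 24.9 and 15.2 CPM to 11.2, 11.9 and 8.76 CPM and to 13.1, 14.7 and 10.5 CPM (-0.86, SE 0.15, adjusted p = 0.000139). Neither pair of groups overlapped. FANCL (-0.30) lost its call without siCtrl replicate 1 or 2, siNONO-3 replicate 2 or 3, or siNONO-4 replicate 3, and TP53BP1 (-0.26) without siCtrl replicate 3 or siNONO-4 replicate 1. Of 38 tested histone genes, 4 were called higher (10.5%, against 7.45% of all genes tested) and 0 lower by edgeR. These were H2AC6 (0.90), H2BC12 (0.76), H2BC5 (0.72) and the linker histone gene H1-2 (0.70). The replicate block gave 6 higher, against 11.9% of all genes tested. Histone genes are near-identical copies whose mRNAs mostly lack a poly(A) tail, so their counts from poly(A) RNA are uncertain.

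Of 32 lineage and neuroendocrine genes listed, 16 had enough reads to be tested. Of the 16, 2 were called higher (12.5%, against 7.45% of all genes tested) and 5 lower (31.2%, against 9.7%). The replicate block gave 7 lower, against 14.3% of all genes tested. NEUROD1, a neurogenic transcription factor, rose from 4.56, 4.70 and 4.59 CPM to 8.59, 8.71 and 12.5 CPM with siNONO-3 and 7.98, 9.12 and 16.4 CPM with siNONO-4. All 6 siNONO libraries of NEUROD1 lay above control (1.19, SE 0.26, adjusted p = 0.00212), but the gene shares its locus and strand with CERKL. The prohormone convertase gene PCSK1 fell by 1.70 (SE 0.31, adjusted p = 0.000848), the synaptic gene SNAP25 by 0.83 (SE 0.20, adjusted p = 0.00509), and the vesicle gene SYP by 0.73, a call lost without siCtrl replicate 3. REST, which silences neuronal genes, rose by 0.31 (SE 0.06, adjusted p = 0.00108), and SOX4 (-0.60) lost its call without siCtrl replicate 1. Of 40 listed glutamate and GABA receptor genes, 8 were tested. Of the 8, 1 was called higher (12.5%) and 3 lower (37.5%), against 7.45% and 9.7% of all genes tested. GRIK1 had the smallest adjusted p of the 3, and GRIK2 the largest fall (-2.32, adjusted p = 0.00238). GRIK2 held no more than 2.86 CPM in any of the 9 libraries and was named after its values were seen. The receptor count called higher was 0 without siCtrl replicate 1 or 3. With the block it was 2, against 11.9% of all genes tested.

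Of 33 tested collagens, laminins and integrins, 4 were called higher (12.1%) and 9 lower (27.3%), against 7.45% and 9.7% of all genes tested. The count called lower was 5 without siCtrl replicate 1. COL1A2 rose from 2.15, 4.70 and 3.35 CPM to 8.69, 18.5 and 10.1 CPM with siNONO-3 and 7.31, 18.9 and 16.6 CPM with siNONO-4, and the groups did not overlap (1.97, SE 0.38, adjusted p = 0.00111). ITGB3, an integrin subunit, fell from 15.6, 13.3 and 15.8 CPM to 7.40, 5.84 and 7.92 CPM and to 10.4, 7.29 and 6.67 CPM (-0.97, SE 0.17, adjusted p = 0.00016). COL1A1, which pairs with COL1A2 in type I collagen, was called in the mean (0.84) but not with siNONO-3 alone (0.38, adjusted p = 0.303), and lost its call without siCtrl replicate 1. COL12A1 (-0.74) was lower with overlapping groups, and ITGA2 (-1.15) lost its call without siCtrl replicate 2. WWTR1, the partner of YAP1 known as TAZ, was called lower (-0.76) with overlap: siNONO-3 gave -1.20 and siNONO-4 -0.31 (adjusted p = 0.131).

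Of 39 tested axon guidance genes 5 were called higher and 5 lower (12.8% each, against 7.45% and 9.7% of all genes tested), and 12 were lower with the replicate block. ROBO2, a guidance receptor whose gene spans 1743.3 kb, fell from 311, 286 and 343 CPM to 144, 151 and 155 CPM with siNONO-3 and 167, 170 and 170 CPM with siNONO-4 (-0.98, SE 0.09, adjusted p = 5.76e-08). EPHA2, an ephrin receptor, rose from 23.05, 26.4 and 27.0 CPM to 46.6, 49.6 and 50.2 CPM and to 52.2, 46.4 and 53.04 CPM (0.96, SE 0.09, adjusted p = 5.51e-08). The 2 receptors moved in opposite directions, and neither was called in the test between the siRNAs. PLXNB2 rose by 0.51 (SE 0.10, adjusted p = 0.000603) and EPHB3 fell by 0.90 (SE 0.18, adjusted p = 0.00078). The count called higher was 2 without siCtrl replicate 1 or 2 and 3 without siNONO-3 replicate 3 or siNONO-4 replicate 3, and the count called lower was 8 without siNONO-3 replicate 1.

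Transcripts that carry microRNAs are the object of the series. MicroRNAs are cut from long primary transcripts in the nucleus and recognise targets mainly through the seed, bases 2 to 8. Of 46 listed noncoding host genes, 31 were tested. Of the 31, 4 were called higher (12.9%) and 2 lower (6.45%), against 7.45% and 9.7% of all genes tested. The count called lower was 1 without siCtrl replicate 3. Poly(A) counts per host gene do not measure the mature microRNAs, which were not measured here. The mature sequences below lie inside the called hosts on the same strand (RefSeq, GRCh38.p14), with the seed in capitals, and show which seeds these hosts carry: MIR34AHG holds hsa-miR-34a, H19 hsa-miR-675, MIR29B2CHG hsa-miR-29b and hsa-miR-29c, MIRLET7IHG hsa-let-7i, and FTX among others hsa-miR-374b and hsa-miR-421.
hsa-miR-34a-5p: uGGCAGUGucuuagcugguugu
hsa-miR-675-5p: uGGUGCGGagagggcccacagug
hsa-miR-29b-3p: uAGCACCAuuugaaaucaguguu
hsa-miR-29c-3p: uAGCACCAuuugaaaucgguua
hsa-let-7i-5p: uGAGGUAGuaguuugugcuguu
hsa-miR-374b-5p: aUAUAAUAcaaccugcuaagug
hsa-miR-421: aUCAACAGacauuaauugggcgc
Of these, hsa-miR-29b-3p and hsa-miR-29c-3p share the seed AGCACCA, and the others each have their own.

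MIR34AHG, the host of the p53-responsive hsa-miR-34a (1:9148011-9198906, hg38), held 19.1, 16.5 and 18.9 CPM in siCtrl, 37.7, 33.4 and 32.8 CPM with siNONO-3 and 31.2, 29.3 and 33.6 CPM with siNONO-4. It rose with both siRNAs and no overlap (0.86, SE 0.11, adjusted p = 1.85e-06), with LNCTAM34A on the other strand. PVT1, a microRNA host that also responds to p53, held 44.2, 44.2 and 70.2 CPM in siCtrl, 120, 127 and 140 CPM with siNONO-3 and 95.2, 96.2 and 127 CPM with siNONO-4 (1.14, SE 0.17, adjusted p = 9.5e-05). FTX, a noncoding RNA of the X chromosome, fell from 87.8, 73.4 and 109 CPM to 49.1, 46.7 and 39.6 CPM and to 64.9, 60.9 and 60.2 CPM (-0.77, SE 0.11, adjusted p = 3.12e-05). H19, an imprinted RNA, rose by 0.62 (SE 0.14, adjusted p = 0.00174). MIR29B2CHG (0.60) lost its call without siCtrl replicate 1 or 2, siNONO-3 replicate 1 or 3, or siNONO-4 replicate 3, and MIRLET7IHG (-0.58) without siCtrl replicate 3. Compared with NONO knockdown, SFPQ knockdown left MIRLET7IHG higher (2.497) and H19 (-3.21), MIR34AHG (-0.79), FTX (-0.97) and PVT1 (-0.30) lower.

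The machinery that makes and uses microRNAs gave few calls. Of 34 tested genes, 0 were called higher and 2 lower by edgeR (5.88%), against 7.45% and 9.7% of all genes tested. These were DICER1 (-0.22, adjusted p = 0.0273), which cuts precursors, and AGO1 (-0.20, adjusted p = 0.0453), which loads mature microRNAs. Neither call was stable: DICER1 lost it without siCtrl replicate 2 or 3, siNONO-3 replicate 1 or siNONO-4 replicate 1, and AGO1 in all leave-one-out fits but that without siNONO-3 replicate 1. With the replicate block 2 were higher and 4 lower, against 11.9% and 14.3% of all genes tested. Of 45 tested splicing regulators, 4 were called lower (8.89%, against 9.7% of all genes tested) and 0 higher by edgeR. The block gave 9 lower, against 14.3% of all genes tested. RBFOX2, a regulator of alternative exons, fell from 145, 149 and 152 CPM to 91.4, 82.8 and 82.0 CPM with siNONO-3 and 122, 120.4 and 120 CPM with siNONO-4. RBFOX2 fell in clear steps between the groups (-0.55, SE 0.06, adjusted p = 1.12e-07). TIA1 (-0.30) and SRSF11 (-0.26) were lower by less, and SRSF7 (-0.25) lost its call without siCtrl replicate 1 or 2, any siNONO-3 replicate, or siNONO-4 replicate 1 or 3. Of 25 polyadenylation and termination factors, 1 was called higher (4%) and 0 lower, against 7.45% and 9.7% of all genes tested. That gene, SSU72, a phosphatase of RNA polymerase II, rose by 0.68 (SE 0.09, adjusted p = 3.7e-06). With the block 3 of these factors were higher and 1 lower, against 11.9% and 14.3% of all genes tested.

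The share of genes called lower was larger in classes of longer genes. Among 4355 tested genes that span up to 10 kb, 5.9% were called higher and 4.89% lower. From 10 to 30 kb the shares were 8% and 7.6%, from 30 to 100 kb 8.94% and 11.3%, and from 100 to 300 kb 6.62% and 15.9%. Among 539 genes over 300 kb, 6.12% were called higher and 24.3% lower, with a median log2 fold change of -0.20. The share called lower thus rose over the 5 classes, while the share called higher stayed between 5.9% and 8.94%. GRIK1, ANO3 and ROBO2 are in the longest class. Of the 539, 312 were lower and 138 higher after SFPQ than after NONO knockdown, with a median difference of -0.71; of all genes tested 38.4% were lower and 37% higher in that test. Reads per gene, transcript number and length go together, and their part in the shares was not tested.

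**Figure D5:**
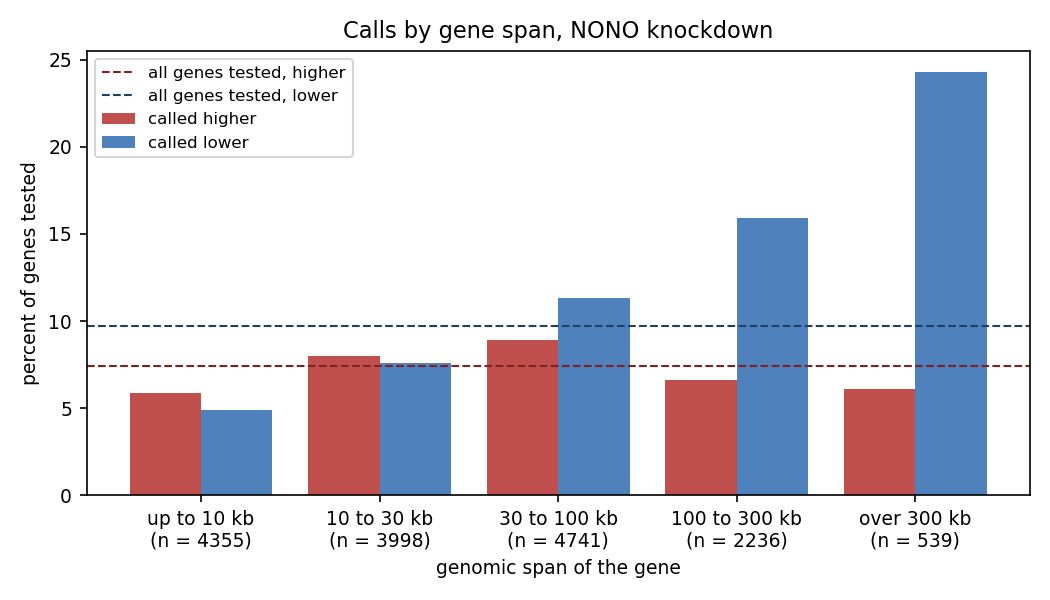
Percent of genes called higher (red) or lower (blue) with NONO knockdown (y axis) in 5 classes of genomic span (x axis, number tested in parentheses); dashed lines give the shares of all genes tested. Blue bars climb from 4.89% to 24.3%, and red bars stay between 5.9% and 8.94%.

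The siRNAs were also taken one at a time. With siNONO-3 alone 3165 genes were called (19.9%; 1431 higher and 1734 lower) and with siNONO-4 alone 1752 (11%; 810 higher and 942 lower). The direct test of siNONO-4 minus siNONO-3 called 1590 genes (10%; 843 higher and 747 lower). With the replicate block these counts were 4579, 3118 and 2733. In 25 genes the siRNAs alone were called in opposite directions, and 46 genes that passed in the mean were set aside for opposite signs. The siNONO-3 count was 1979 without siNONO-3 replicate 3. The siNONO-4 count was 981 without siCtrl replicate 1, 1129 without siCtrl replicate 2 and 924 without siNONO-4 replicate 3. The count of the difference was 1019 and 951 without siNONO-3 replicate 2 and 3, and 1029 and 1021 without siNONO-4 replicate 1 and 3. UTS2, the urotensin 2 gene, was the extreme case. It held 157, 192 and 246 CPM in siCtrl, 10.5, 11.04 and 10.6 CPM with siNONO-3 and 235, 175 and 196 CPM with siNONO-4. UTS2 was thus near its control level with siNONO-4 (0.03) and far below it with siNONO-3 (-4.21), and it counts as no call for NONO; it overlaps PER3 on the other strand.

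The direct test of SFPQ minus NONO knockdown called 11958 (75.4%; 37% higher and 38.4% lower). Of the 12 largest falls with NONO knockdown, 9 were higher after SFPQ than after NONO knockdown and 3 lower; of the 12 largest rises, 9 were lower and 2 higher. Those genes were chosen on the same siNONO libraries, so these counts describe the genes and support no direction. UNC13A averaged 166.6 and 139.8 CPM with siSFPQ-2 and siSFPQ-3, above its siCtrl libraries, where no siNONO library exceeded 26.2 CPM. ANO3 averaged 151.6 and 122.8 CPM with the SFPQ siRNAs, against 16.3, 9.61 and 7.87 CPM in siCtrl and at most 5.22 CPM with the NONO siRNAs. GRIK1 and TMEM26 stood lower after SFPQ knockdown than after NONO knockdown (-3.12 and -2.46). CPA4 averaged 198.1 and 90.7 CPM with the SFPQ siRNAs, above and below its siCtrl range of 99.4 to 176 CPM, and PPBP 106.0 and 77.2 CPM, above both NONO siRNAs.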

How the data were processed

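Poly(A)-selected RNA of SBC-3 cells was sequenced in 8 groups of 3 libraries, of which 9 libraries enter the comparison. The deposited files hold whole-number read counts per gene, which the authors made with cutadapt 4.2, STAR 2.7.5a and featureCounts (Subread 2.0.3) on hg38, per the submitters' processing notes, which also name DESeq2 1.38.1. Which annotation was used, whether strand was counted and how reads with several matches were treated is not given in the sources used; overlapping, antisense and near-identical genes are therefore uncertain. Library totals of 9239632 to 13525528 reads limit the precision of low genes, and intervals cover counting error only.

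Counts of all 24 libraries were fitted together with edgeR 4.0.16 (R 4.3.3): filterByExpr left 15869 genes, TMM factors ran from 0.979 to 1.02, and the quasi-likelihood test was followed by Benjamini-Hochberg adjustment over all of them. Genes with an adjusted p under 0.05 in the mean of both siRNAs and the same sign with each were called. No label says that replicates were separate cultures; the p-values then cover only the spread among these libraries, possibly a technical one. Named genes are the DBHS genes, the 12 largest rises and falls among genes with at least 5 CPM in a group that passed with each siRNA, the 5 smallest adjusted p-values per direction, up to 4 called members per list and direction, and the largest differences between siRNAs and between targets. Members and lists were chosen with earlier results of these data known.

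Same-numbered libraries deviated together (9 pairs, r = 0.522 to 0.707 over the 5000 genes with the highest expression; 18 other pairs, -0.625 to 0.083), so the numbers pair the samples. Alternatives were the replicate block, other scaling factors, other filters, DESeq2 1.42.0, the 9 libraries alone, no mitochondrial genes, and leaving out each library. The code was tested on simulated data. Sequences are from RefSeq (GRCh38.p14). A few single genes are not reported here.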

Additional observations from a re-analysis of the deposited data

Results flagged for a closer look

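Differences between the siRNAs were tested directly as siNONO-4 minus siNONO-3, and 1590 genes passed. The largest in the higher direction were UTS2 (4.24 on the log2 scale), the formin gene FMNL1 (2.10), TRAPPC3L (2.08) and the integrin gene ITGA1 (2.06). ITGA1 held 22.2, 14.4 and 17.8 CPM in siCtrl, 4.74, 4.03 and 3.64 CPM with siNONO-3 and 20.2, 16.8 and 14.6 CPM with siNONO-4, and overlaps PELO. FMNL1 was called lower with siNONO-3 (-1.71) and not with siNONO-4 (0.40, adjusted p = 0.354).

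The largest in the lower direction were L3MBTL2-AS1 (-2.91), the p53 target PLK2 (-2.52), the peptide hormone gene ADM2 (-2.35) and INPP5D (-2.03). L3MBTL2-AS1 held 0.63, 0.41 and 0.80 CPM in siCtrl, 8.69, 9.87 and 7.55 CPM with siNONO-3 and 1.14, 1.39 and 0.92 CPM with siNONO-4, and overlaps L3MBTL2 on the other strand. INPP5D was called higher with each siRNA (3.13 and 1.10).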

How the results depend on the processing

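Leaving out 1 library at a time gave 1639 to 2654 genes called (722 to 1164 higher, 917 to 1543 lower). The range was 1979 to 3108 with siNONO-3 alone (858 to 1427 higher, 1121 to 1681 lower), 924 to 1713 with siNONO-4 alone (451 to 793, 473 to 920) and 951 to 1600 for siNONO-4 minus siNONO-3 (522 to 886, 429 to 714). NONO ran from -2.57 to -2.47. The replicate block gave 4150 genes called (1885 higher), 2150 higher with siNONO-3, 3118 with siNONO-4 (1426 higher, 1692 lower) and 2733 between the siRNAs (1403 higher, 1330 lower). Among named genes the block changed the call of PRR9 (2.13, adjusted p = 4.72e-07), SLC14A2 (1.14, adjusted p = 2.13e-05) and EGFL6 (1.48, adjusted p = 4.66e-07), and of no other named gene; FMNL1 (-0.638, adjusted p = 0.0164) had opposite signs with the siRNAs and was not called. With at least 5 CPM in a group, 131 genes rose and 132 fell by at least 2-fold. The sign turned for NEAT1 (-0.025 and -0.101 without siCtrl replicate 1 and 2; leave-one-out range -0.101 to 0.364), LRRN3 (0.97 without siCtrl replicate 2; range -2.542 to 0.97) and GALNT13 (0.081 without siCtrl replicate 3; range -0.658 to 0.081), none of them called; the cause was not tested. Scaling by RLE or upper quartile and DESeq2 kept the call and direction of 153 of 153 named genes; 5 lost their call in the fit of only the 9 libraries, and with no filter on low counts 4 lost it and 1 gained one. Depth limits genes with few reads.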

Other observations

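Of 14 tested imprinted genes 2 were called higher (14.3%, against 7.45% of all genes tested) and 3 lower (21.4%, against 9.7%). MEST, a hydrolase-like gene, held 589.7, 566 and 610 CPM in siCtrl, 411, 447 and 345 CPM with siNONO-3 and 458, 466 and 413 CPM with siNONO-4 (-0.48, SE 0.08, adjusted p = 5.48e-05), and GNAS, a G protein subunit gene, fell by 0.36 (adjusted p = 0.000557). IGF2R (0.20, adjusted p = 0.023) lost its call without siCtrl replicate 1 or 2, siNONO-3 replicate 3 or siNONO-4 replicate 3. Of 13 mitochondrially encoded mRNAs 2 were called higher (15.4%, against 7.45% of all genes tested). MT-ND3 rose by 0.40 (adjusted p = 0.000195). MT-ND2 (0.26) lost its call without siCtrl replicate 1 or 2, siNONO-3 replicate 2 or 3, or siNONO-4 replicate 3.

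Over all genes tested, 7.45% were called higher and 9.7% lower, or 11.9% and 14.3% with the replicate block. Of 17 endoplasmic reticulum chaperones 3 were called lower (17.6%), 5 with the replicate block, and 1 without siCtrl replicate 1 or 2. HSP90B1, the most abundant of those called, held 2292, 2162 and 1866 CPM in siCtrl, 1667, 1657 and 1509 CPM with siNONO-3 and 1455, 1697 and 1533 CPM with siNONO-4 (-0.41, SE 0.08, adjusted p = 0.00101). Of 18 clock genes 3 were called lower (16.7%), with NR1D2 at -0.46 (adjusted p = 0.00031). The clock count was 1 without siCtrl replicate 1 or 3 or siNONO-4 replicate 3. Of 21 keratin and junction genes 1 was higher and 1 lower (4.76% each, both under the shares of all genes). The keratin and junction count called lower was 5 with the block, and 2 without siCtrl replicate 3, siNONO-3 replicate 1 or siNONO-4 replicate 1. KRT10 held 232, 187 and 287 CPM in siCtrl and 91.9 to 171 CPM in the siNONO libraries (-0.80, adjusted p = 0.00509). Of 24 mesenchymal and YAP-responsive genes 2 were higher and 2 lower (8.33% each, near the shares of all genes), and 4 each with the block. ZEB2 was at -0.45 (adjusted p = 0.000664). Of the 2 called higher, 0 were left without siCtrl replicate 1 or 2, and 1 without siCtrl replicate 3, siNONO-3 replicate 1 or 3, or siNONO-4 replicate 1 or 3. Of 8 tested markers of other cell types 2 were higher (25%, COL1A1 and ACTA2) and 2 lower (25%). TP63 (-0.43, adjusted p = 0.0149) lost its call without siCtrl replicate 1 or 3.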
